A study of Mus musculus with 6 samples.

Results

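The 10 genes described here belong to the Hippo pathway or act at its transcriptional output: the effectors Yap1 and Wwtr1 (the gene of TAZ), the DNA-binding factors Tead1, Tead2, Tead3 and Tead4, the kinases Lats1 and Lats2, the angiomotin gene Amotl2 and the muscle ankyrin repeat gene Ankrd1. They were taken by gene symbol from a table of 22081 genes, in which the 10 symbols had 11 rows, because Lats2 was listed a second time for a readthrough gene. RNA-seq had been performed on freshly isolated muscle stem cells (MuSCs, the Pax7-expressing stem cells of skeletal muscle) in 6 libraries, 3 from control and 3 from Taf4asKO mice on a C57BL/6 background. Taf4asKO mice carried floxed alleles of Taf4a (now Taf4, a subunit of the general transcription factor TFIID) together with a tamoxifen-inducible Cre recombinase driven by Pax7, and received tamoxifen. According to the study's methods, controls were littermates that carried the same floxed alleles, with or without the Cre allele, and some animals also carried a Pax7-zsGreen reporter. Tamoxifen treatment is named there with the Taf4asKO genotype. Whether the controls of these libraries received it is not stated. The sample titles read WT and Taf4a-KO, and the names control and Taf4asKO used here for these labels follow the study. The labels do not say which of the floxed, Cre and reporter alleles each library had, the age or sex of the mice or whether animals were pooled. The study's methods describe adult mice of both sexes. Per these methods, cells bearing SCA1, CD45 or CD31 were first depleted with magnetic beads, MuSCs were then sorted by integrin alpha 7 or the reporter, and the sort was not fully pure.

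In the Hippo pathway, the MST kinases with their scaffold SAV1 activate the LATS kinases and their MOB1 partners, which phosphorylate YAP and TAZ and hold them in the cytoplasm. Unphosphorylated YAP and TAZ enter the nucleus and bind TEAD factors, which recognize DNA. LATS2, AMOTL2 and ANKRD1 are encoded by genes that YAP and TAZ activate, and LATS2 and AMOTL2 in turn restrain YAP and TAZ. In MuSCs the pathway is known for its part in proliferation and differentiation. RNA-seq measured mRNA levels, and neither phosphorylation nor location of the proteins was measured.

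To show where the TEAD recognition motif lies in these genes, the RefSeq promoter table (GRCm38.p6, 250 bases before to 50 bases after the start of a gene) was searched on both strands for GGAATG. Of the 10 members, 8 were found in this table, and 6 of these held the motif in at least 1 promoter, against 16.6% of all 27025 genes and 14.7% of all 32851 promoters in the table. The members with a match were Yap1, Wwtr1, Tead3, Lats2, Amotl2 and Ankrd1, while the promoters of Tead2 and Lats1 held no GGAATG in this window. The matches are printed below with 12 bases on either side, 5′ to 3′ in the direction of the motif, with the motif in capitals, so that they can be set beside the values of the same genes. The target gene Cyr61 (Ccn1 in RefSeq) is included because it showed the largest rise among the target genes described further below.
Yap1 (chr9:8004720-8004749, minus strand): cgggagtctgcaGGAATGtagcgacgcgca
Wwtr1 (chr3:57576029-57576058, minus strand): ggtaaactcaaaGGAATGcagataggcgct
Tead3 (chr17:28350970-28350999, minus strand): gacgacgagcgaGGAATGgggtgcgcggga
Lats2 (chr14:57746102-57746131, minus strand): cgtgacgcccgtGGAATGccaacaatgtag
Amotl2 (chr9:102717727-102717756, minus strand): gctgctatgccaGGAATGtgagagtttcag
Ankrd1, first site (chr19:36120037-36120066, minus strand): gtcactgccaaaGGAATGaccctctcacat
Ankrd1, second site (chr19:36119950-36119979, minus strand): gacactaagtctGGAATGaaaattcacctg
Ccn1 (chr3:145650071-145650100, plus strand): tcaaacatctcaGGAATGttggttggcgcg
The motif began 141 bases before the start of Yap1, 136 before Wwtr1, 182 before Tead3, 65 before Amotl2 and 103 before Ccn1. In Ankrd1 the distances were 210 and 123 bases, and in Lats2 the motif began 4 bases after the start. Tead3 had 3 more matches around another of the 3 starts that the table gives for it. The CCAAT letters that NF-Y recognizes were found in 1 of the 8 members, Ankrd1, against 41.1% of all genes, and TATAAA was found in 0 of the 8, against 15.7% of all genes. A match is a stretch of letters and was not tested as a binding site.

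Facts of the series that bear on these values were as follows. Values are normalized counts, gene counts that the authors scaled with DESeq2 size factors and rounded, and they summed to totals of 12338676 to 14551732 per library. Taf4 itself gave 613, 534 and 478 normalized counts in control replicates 1, 2 and 3, compared with 631, 565 and 574 in those labelled Taf4asKO, a log2 fold change of 0.13 (SE 0.12, adjusted p 0.524 in limma). Its total over all exons therefore did not separate the groups, and every direction below follows the labels. Per the study, recombination removed only some exons of the gene. Its RT-qPCR and western blots found almost no Taf4a transcript or protein in Taf4asKO MuSCs. Reads over the removed exons alone cannot be seen in these gene totals. All 8 MuSC markers examined were measured, with Pax7 between 10363 and 13007 normalized counts. Of these, Myf5, Itga7 and Cdh15 were lower and Sdc4 and Vcam1 higher past the threshold defined below, and the summed level ran from 35925 to 37449 in control and from 36906 to 39879 in Taf4asKO. Marker levels of other cells are given beside the target genes.

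The threshold for a difference was a fold change of at least 1.3 on the log2(value + 1) scale together with an adjusted p under 0.05 (limma, Benjamini-Hochberg over all 18562 genes tested). Of the 10 members, 2 passed, Wwtr1 and Lats2, and both were higher in Taf4asKO. This compares with 12.6% of all genes tested, 5.93% higher and 6.71% lower, and no test of the members against this share was made. In the lower direction 0 members passed in limma, and limma-voom gave 0 as well, although 3 had an unadjusted p under 0.05 in limma (Tead2, Tead3 and Tead4). No share of all genes was taken at an unadjusted p under 0.05, so such counts, here and below, have no background beside them. In a fit blocked on replicate number, made because same-numbered libraries deviated together, 4 of 10 members passed, against 18.1% of all genes tested, with Tead3 and Tead4 lower in addition. The median log2 fold change was 0.12 over the members and 0.0040 over all genes tested. Values of control and Taf4asKO did not overlap for 5 members (Yap1, Wwtr1, Lats1 and Lats2 higher, Tead2 lower), against 33.0% of all genes tested.

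**Figure D1:**
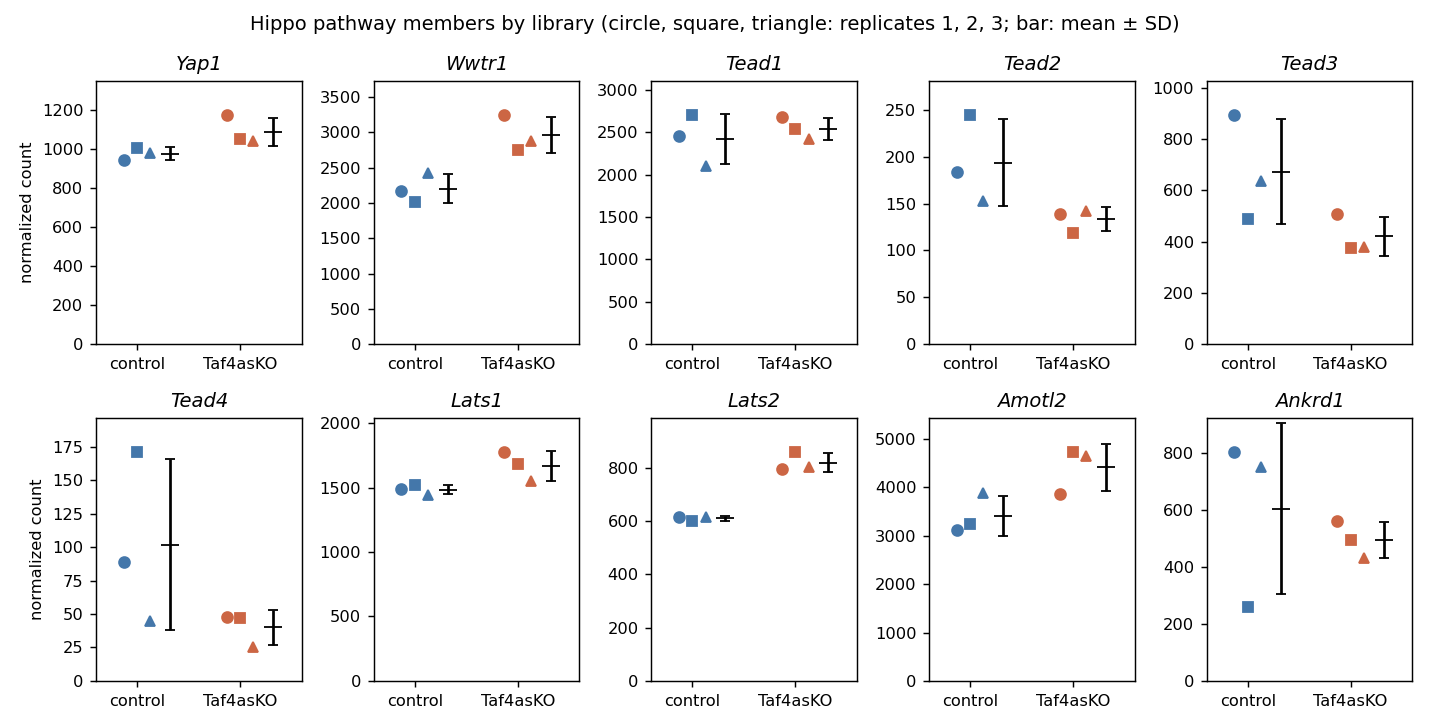
Normalized counts of the 10 members in each library (vertical axis from 0, a panel per gene), with control in blue, Taf4asKO in orange, circles, squares and triangles for replicates 1, 2 and 3, and black bars for mean ± SD. Wwtr1 and Lats2 lie higher in all 3 Taf4asKO libraries than in any control library, and control replicate 2 stands apart for Tead4 (171) and Ankrd1 (259).

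Among the effectors, Wwtr1 rose and Yap1 did not pass. Wwtr1 (ENSMUSG00000027803, mm10 chromosome 3, 57455649 to 57575910, minus strand), the gene of TAZ, gave 2168, 2009 and 2419 normalized counts in the control libraries, compared with 3239, 2748 and 2882 in Taf4asKO. All Taf4asKO libraries were above all control libraries. Mean values were 2199 ± 207 and 2956 ± 254 (SD, n = 3 in each group, as for all values below), a log2 fold change of 0.43 (SE 0.11, adjusted p 0.0264 in limma), which is 1.35-fold. Wwtr1 passed in only 1 of the 6 fits that left out one library, that without control replicate 3. Over these fits the log2 fold change ran from 0.36 to 0.50 and the adjusted p from 0.0221 to 0.0972, and without control replicate 2 the fold change alone fell short.

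Yap1 (ENSMUSG00000053110, chromosome 9, 7931999 to 8004596, minus strand) gave 943, 1005 and 979 normalized counts in the control libraries, compared with 1171, 1051 and 1039 in Taf4asKO. These groups did not overlap either, but the distance between the highest control and the lowest Taf4asKO library was small. The log2 fold change was 0.15 (SE 0.10, adjusted p 0.323 in limma), with a 95% confidence interval from -0.06 to 0.37. Per kilobase of exon, Wwtr1 was the more abundant of the effectors, at 460 ± 43.3 normalized counts per kilobase in control against 105 ± 3.36 for Yap1. The level of Wwtr1 over that of Yap1, both per kilobase, was 4.45, 3.87 and 4.79 in control and 5.36, 5.07 and 5.37 in Taf4asKO, without overlap between the groups. This ratio is a description and was not tested. Yap1 shares 116 exon bases with Gm20416 on the opposite strand.

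Lats2, which encodes a kinase that inactivates YAP and TAZ, rose, whereas its relative Lats1 did not pass. Lats2 (ENSMUSG00000021959, chromosome 14, 57689662 to 57746123, minus strand) gave 615, 598 and 614 normalized counts in the control libraries, compared with 796, 858 and 801 in Taf4asKO. The control libraries lay close together, and every Taf4asKO library lay above them. Mean values were 609 ± 9.54 and 818 ± 34.4, a log2 fold change of 0.42 (SE 0.10, adjusted p 0.0178 in limma), which is 1.34-fold. The call was lost whenever a Taf4asKO library was left out, with adjusted p up to 0.107, while the log2 fold change stayed between 0.39 and 0.44.

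The value of Lats2 rests on part of its transcript. In GENCODE M21, 2955 of its 6971 exon bases (42.4%) are shared with a readthrough gene on the same strand (ENSMUSG00000114942, chromosome 14, 57642077 to 57746103), and the authors left out reads that overlapped more than 1 gene. The readthrough gene, also listed as Lats2, gave 2, 19 and 14 normalized counts in the control libraries, compared with 16, 19 and 16 in Taf4asKO. All of its exon bases are shared with Lats2 or Xpo4, so its few reads cannot be attributed, and it did not pass (log2 fold change 0.89, SE 0.63, adjusted p 0.387 in limma). Over the remaining 4016 bases, the level of Lats2 was 152 ± 2.38 normalized counts per kilobase in control and 204 ± 8.58 in Taf4asKO, against 87.4 ± 1.37 and 117 ± 4.94 over the full length.

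Lats1 (ENSMUSG00000040021, chromosome 10, 7681214 to 7716460, plus strand) gave 1487, 1517 and 1444 normalized counts in the control libraries, compared with 1775, 1679 and 1549 in Taf4asKO. The groups did not overlap, and the log2 fold change was 0.17 (SE 0.09, adjusted p 0.265 in limma, 95% confidence interval from -0.04 to 0.37). Per kilobase, Lats1 lay at 203 ± 5.03 in control, above Lats2 on either length. The level of Lats2 over that of Lats1, on the full exon length, was 0.433, 0.413 and 0.445 in control and 0.469, 0.535 and 0.541 in Taf4asKO. Over the unshared Lats2 bases this ratio was 0.752, 0.716 and 0.773 in control and 0.815, 0.928 and 0.940 in Taf4asKO, and on neither length did the groups overlap.

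The TEAD factors bind DNA on behalf of YAP and TAZ. In limma 0 of the 4 passed without the block, against 12.6% of all genes tested, and limma-voom gave 0 as well. In limma 3 of the 4 had an unadjusted p under 0.05, and the median log2 fold change was -0.58. Tead1 (ENSMUSG00000055320, chromosome 7, 112679318 to 112906807, plus strand), the family member with the highest level per kilobase, gave 2458, 2701 and 2108 normalized counts in the control libraries, compared with 2677, 2536 and 2417 in Taf4asKO. The groups overlapped, and the log2 fold change was 0.08 (SE 0.11, adjusted p 0.691 in limma, 95% confidence interval from -0.17 to 0.32).

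Tead3 (ENSMUSG00000002249, chromosome 17, 28331671 to 28350805, minus strand) gave 893, 490 and 638 normalized counts in the control libraries, compared with 508, 375 and 378 in Taf4asKO. Control replicate 2 fell below Taf4asKO replicate 1, so the groups overlapped, although within each replicate number the Taf4asKO library was the lower one. The log2 fold change was -0.65 (SE 0.21, adjusted p 0.0652 in limma), and when blocked on replicate number Tead3 passed (SE 0.12, adjusted p 0.00312). Without control replicate 2 it also passed (log2 fold change -0.86, adjusted p 0.0174).

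Tead4 (ENSMUSG00000030353, chromosome 6, 128224288 to 128300813, minus strand), a TEAD gene known as a target of MYOD1 in myoblasts, gave 89, 171 and 45 normalized counts in the control libraries, compared with 48, 47 and 25 in Taf4asKO. Relative to their mean, control libraries differed among themselves more than for any other TEAD gene, and control replicate 3 lay within the range of Taf4asKO. The log2 fold change was -1.18 (SE 0.44, adjusted p 0.108 in limma), and Tead4 passed when blocked on replicate number (SE 0.26, adjusted p 0.00857). It also passed without control replicate 3 (log2 fold change -1.66, adjusted p 0.0245).

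Tead2 (ENSMUSG00000030796, chromosome 7, 45215753 to 45233644, plus strand) gave 184, 244 and 153 normalized counts in the control libraries, compared with 139, 119 and 142 in Taf4asKO. Every Taf4asKO library was below every control library, but Tead2 did not pass (log2 fold change -0.51, SE 0.19, adjusted p 0.105 in limma), and neither did it when blocked on replicate number (adjusted p 0.0777).

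The make-up of TEAD mRNA was compared per kilobase of exon, the sum of the 4 genes being taken as 100% in each library. Tead1 made up 48.0%, 53.7% and 52.7% of this sum in control and 62.6%, 66.6% and 65.7% in Taf4asKO, without overlap between the groups. The share of Tead3 was 29.1% ± 8.25 in control and 21.6% ± 2.16 in Taf4asKO, that of Tead2 11.6% ± 1.9 and 9.67% ± 1.12, and that of Tead4 7.88% ± 4.44 and 3.82% ± 1.11. For Tead3, Tead2 and Tead4 these ranges overlapped. The summed level was 377, 371 and 295 normalized counts per kilobase in control and 315, 281 and 271 in Taf4asKO, with control replicate 3 below Taf4asKO replicate 1. By normalized counts without regard to length, a scale chosen after seeing the data, Tead1 made up 71.4% ± 3.54 in control and 81.1% ± 1.57 in Taf4asKO. The absolute shares depend on the exon length given to each gene, which for Tead1 was 13570 bases over all annotated exons, against 3598 to 6714 for the other genes. The shares sum over members and were not tested.

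**Figure D2:**
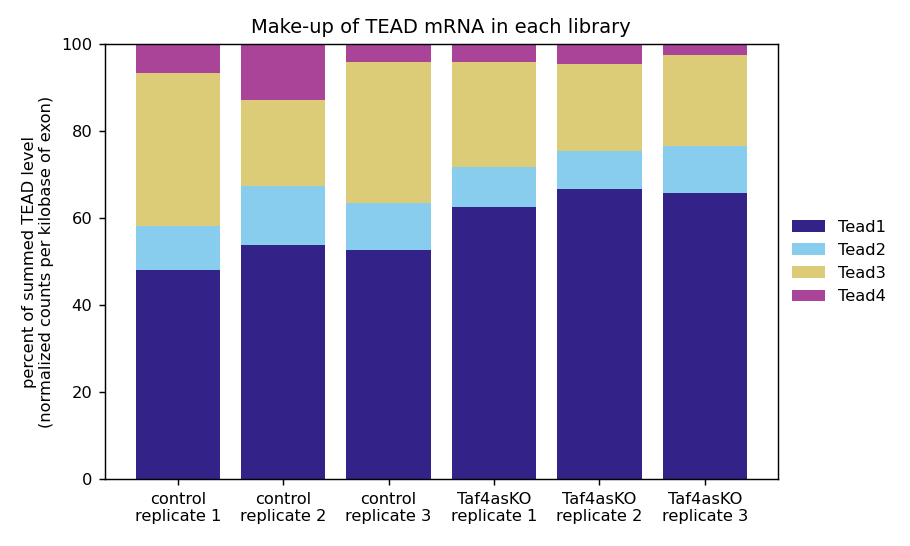
Share of each TEAD gene (stacked colours) in the summed TEAD level per kilobase of exon, in percent (vertical axis), for each of the 6 libraries (horizontal axis). The Tead1 share is 48.0% to 53.7% in the 3 control libraries and 62.6% to 66.6% in the 3 Taf4asKO libraries.

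Amotl2 and Ankrd1, both genes that YAP and TAZ are known to activate, did not pass. Amotl2 (ENSMUSG00000032531, chromosome 9, 102716802 to 102733418, plus strand), which encodes an angiomotin that tethers YAP at cell junctions, gave 3121, 3233 and 3874 normalized counts in the control libraries, compared with 3859, 4729 and 4651 in Taf4asKO. The groups overlapped by a single pair, control replicate 3 and Taf4asKO replicate 1. The log2 fold change was 0.37 (SE 0.12, adjusted p 0.0653 in limma), and when blocked on replicate number the adjusted p was 0.0162 while the fold change of 1.295 stayed short of the limit of 1.3. Without control replicate 3 Amotl2 passed (log2 fold change 0.47, adjusted p 0.0358).

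Ankrd1 (ENSMUSG00000024803, chromosome 19, 36111965 to 36119844, minus strand), which encodes an ankyrin repeat protein of muscle, gave 803, 259 and 751 normalized counts in the control libraries, compared with 560, 493 and 432 in Taf4asKO. The Taf4asKO libraries lay between control replicate 2 and the other control libraries. The log2 fold change was -0.13 (SE 0.35, adjusted p 0.849 in limma, 95% confidence interval from -0.92 to 0.66). Its direction rested on single control libraries: it was -0.66 (adjusted p 0.0111, past the threshold) without control replicate 2, but 0.16 without control replicate 1 and 0.11 without control replicate 3.

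**Figure D3:**
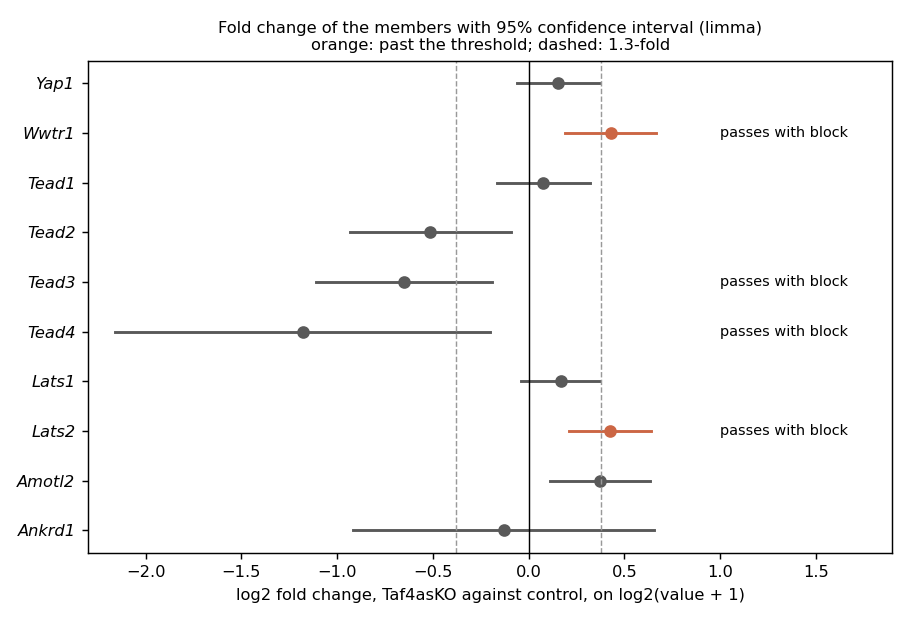
Log2 fold change of each member in Taf4asKO against control on the log2(value + 1) scale (horizontal axis), with points for the limma estimate and lines for its 95% confidence interval. Wwtr1 and Lats2 (orange) passed the threshold, dashed lines mark the 1.3-fold limit, and the text at the right marks the 4 genes that passed when blocked on replicate number.

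Per kilobase of exon, the order of the members in control was Amotl2 (542 ± 64.6 normalized counts per kilobase), Wwtr1 (460 ± 43.3), Ankrd1 (209 ± 104), Lats1 (203 ± 5.03), Tead1 (178.5 ± 21.97), Lats2 (152 ± 2.38 over its unshared bases), Yap1 (105 ± 3.36), Tead3 (100 ± 30.4), Tead2 (40.4 ± 9.66) and Tead4 (28.3 ± 17.8). Amotl2 and Wwtr1 overlapped in this order, as did Ankrd1 with Lats1, Lats1 with Tead1, Yap1 with Tead3, and Tead2 with Tead4. The place of Ankrd1 is uncertain, since its control libraries (278, 89.7 and 260 normalized counts per kilobase) also spanned the values of Tead1, Lats2 and Yap1 and overlapped those of Tead3. In Taf4asKO, Amotl2 (702 ± 76.5) and Wwtr1 (619 ± 53.1) again led, and Tead2 (27.9 ± 2.61) and Tead4 (11.1 ± 3.61) were again lowest.

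For each member past the threshold, the genes with the most similar values over the 6 libraries were sought among the 11322 genes that averaged at least 50 normalized counts (Pearson correlation of log2 values). For Wwtr1 these were Rnaseh2c (r = 0.996) and Dusp5 (r = 0.995), and for Lats2 they were Mindy2 (r = 0.997) and Tnks1bp1 (r = 0.995). These values have little weight, since 145 genes had r over 0.95 with Wwtr1 and 261 with Lats2, all over the same 6 libraries and with the difference between groups included.

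The other genes of the pathway were read from lists by role. Over 76 pathway genes, members included, 9 were higher and 4 lower past the threshold (17.1%, against 12.6% of all genes tested), and the median log2 fold change was 0.14. Without the members, 7 of 66 were higher and 4 lower. When blocked on replicate number, 10 of all 76 were higher and 7 lower, and 8 and 5 of the 66 (18.1% of all genes tested passed in that fit). Leaving out one library gave between 5 genes (without Taf4asKO replicate 3) and 18 (without control replicate 3).

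In the core kinase cassette of MST, SAV1, LATS and MOB1 genes, the log2 fold changes of the 7 genes ran from 0.09 to 0.57, and 2 passed, Lats2 and Sav1, both higher (28.6%, against 12.6% of all genes tested in either direction and 5.93% higher). Sav1, the scaffold that joins MST to LATS kinases, gave 261, 268 and 264 normalized counts in the control libraries, compared with 398, 371 and 408 in Taf4asKO. Control libraries differed by at most 7 counts, and all Taf4asKO libraries were higher (log2 fold change 0.57, SE 0.11, adjusted p 0.0101 in limma). Sav1 did not pass without Taf4asKO replicate 3 (adjusted p 0.0677), and 25.4% of its exon bases are shared with Atl1 on the opposite strand. The MST genes Stk3 and Stk4 had log2 fold changes of 0.11 each, and the MOB1 genes Mob1a and Mob1b of 0.09 and 0.20, none past the threshold.

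Of 12 further kinases that act on LATS or beside it, 1 passed (8.33%, against 12.6% of all genes tested). Stk38l, which encodes a kinase related to LATS, gave 170, 197 and 180 normalized counts in the control libraries, compared with 288, 273 and 261 in Taf4asKO, without overlap (log2 fold change 0.59, SE 0.13, adjusted p 0.0165 in limma). It did not pass when any Taf4asKO library was left out (adjusted p up to 0.0810). Map4k4 had a log2 fold change of -0.28 (adjusted p 0.0623) and Taok1 of 0.30 (adjusted p 0.0542).

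Among 15 upstream scaffold and junction genes, 1 was higher and 1 lower (13.3%, against 12.6% of all genes tested). Frmd6, whose FERM protein acts upstream of the kinases, gave 2365, 2166 and 2359 normalized counts in the control libraries, compared with 3168, 3163 and 3165 in Taf4asKO. The Taf4asKO libraries differed by at most 5 counts and all lay above control (log2 fold change 0.46, SE 0.09, adjusted p 0.00763 in limma), and Frmd6 failed to pass only without Taf4asKO replicate 2 (adjusted p 0.0517) among the fits that left out a library. Dchs1, a large protocadherin that is the ligand of FAT4, fell from 1048, 1417 and 974 to 620, 662 and 637 (log2 fold change -0.82, SE 0.14, adjusted p 0.00476 in limma), and it passed in all 6 fits that left out one library. The junction genes Tjp1 (0.19), Ctnna1 (0.18) and Amotl1 (-0.09) did not pass, and Fat4, the partner of Dchs1, had a log2 fold change of 0.28 (adjusted p 0.569). Rassf1, a binding partner of MST kinases, had a log2 fold change of -0.58 (adjusted p 0.0621) and passed when blocked on replicate number, and 42.7% of its exon bases are shared with Gm9917 on the opposite strand.

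Of 15 genes that restrain LATS or MST signalling (LIM proteins, SIK kinases and components of the STRIPAK phosphatase complex), 1 passed (6.67%, against 12.6% of all genes tested). Ajuba, a LIM protein that inhibits LATS, gave 378, 340 and 377 normalized counts in the control libraries, compared with 265, 260 and 230 in Taf4asKO, without overlap (log2 fold change -0.54, SE 0.12, adjusted p 0.0188 in limma). Its call was lost without Taf4asKO replicate 2, Taf4asKO replicate 3 or control replicate 1, with adjusted p up to 0.103. The related genes Limd1 and Wtip had log2 fold changes of 0.17 and -0.12, and the STRIPAK genes Strn3 and Ppp2ca of 0.18 and 0.06, none past the threshold.

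The VGLL proteins bind TEAD factors in place of YAP and TAZ, and 1 of 3 genes measured passed (33.3%, against 12.6% of all genes tested). Vgll3 gave 1556, 1553 and 1881 normalized counts in the control libraries, compared with 1964, 2377 and 2257 in Taf4asKO (log2 fold change 0.40, SE 0.11, adjusted p 0.0435 in limma). This call was lost in 5 of the 6 fits that left out one library, with adjusted p up to 0.189, and under every other scaling tried (adjusted p from 0.0654 to 0.0693) and limma-voom (adjusted p 0.0721). Vgll4 (0.12) and Vgll2 (0.17) did not pass.

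**Figure D4:**
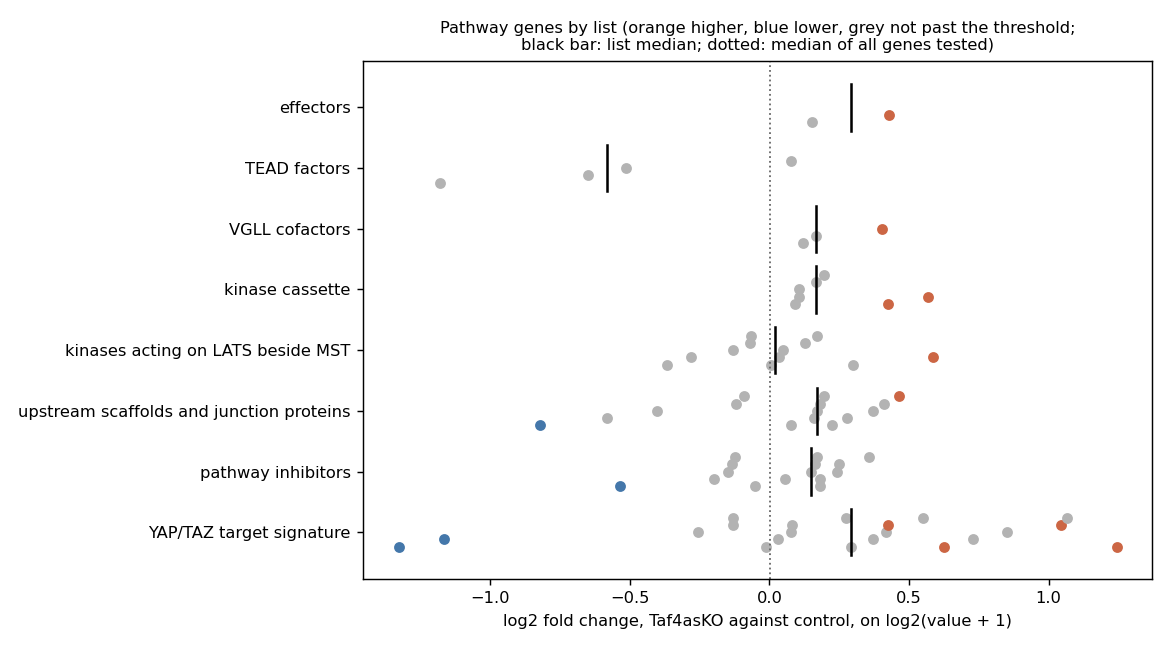
Log2 fold change in Taf4asKO against control (horizontal axis, log2(value + 1) scale) of each pathway gene, with a row per list, orange for genes higher and blue for genes lower past the threshold, grey for the others, and black bars for list medians. The 3 lower TEAD points sit left of the dotted median of all genes tested, and the target signature spreads from -1.33 (Nt5e) to 1.24 (Cyr61).

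The transcriptional output was read from a published signature of YAP and TAZ target genes in other cell types, which includes Lats2, Amotl2 and Ankrd1. Of 21 genes tested, 4 were higher (Cyr61, Gadd45b, Ccdc80 and Lats2) and 2 lower (Nt5e and Igfbp3) past the threshold, 28.6% against 12.6% of all genes. The median log2 fold change was 0.29, with 15 positive and 6 negative values. The count was 10, of which 8 were higher, without control replicate 3, and 3 without Taf4asKO replicate 3.

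Cyr61, which encodes a matricellular protein, showed the largest rise, with 4722, 3515 and 6303 normalized counts in the control libraries and 13293, 10527 and 9922 in Taf4asKO. All Taf4asKO libraries lay above all control libraries (log2 fold change 1.24, SE 0.19, adjusted p 0.00318 in limma), and it passed in all 6 fits that left out one library. Gadd45b, a stress-inducible gene, rose from 889, 661 and 835 to 1879, 1621 and 1412 (log2 fold change 1.04, SE 0.14, adjusted p 0.00167 in limma), again in all 6 fits.

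Ctgf, the closest relative of Cyr61 in the list, gave 275, 296 and 629 normalized counts in the control libraries, compared with 520, 879 and 1035 in Taf4asKO. Control replicate 3 exceeded Taf4asKO replicate 1, and Ctgf did not pass (log2 fold change 1.07, SE 0.32, adjusted p 0.0543 in limma) in the fit of all libraries, but passed when blocked on replicate number and in at least 1 fit that left out a library (adjusted p down to 0.00889). Of its exon bases, 23.2% are shared with Gm15270 on the opposite strand. Ccdc80, a secreted matrix protein gene, rose from 589, 863 and 903 to 989, 1327 and 1285 (log2 fold change 0.63, SE 0.17, adjusted p 0.0412 in limma), and this call was lost without Taf4asKO replicate 2, Taf4asKO replicate 3 or control replicate 1 (adjusted p up to 0.165) and under scaling without abundant genes (adjusted p 0.0504).

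The fall of Nt5e, which encodes the ectonucleotidase CD73, was from 152, 163 and 139 to 58, 53 and 69 normalized counts (log2 fold change -1.33, SE 0.18, adjusted p 0.00174 in limma), in all 6 fits that left out one library. Igfbp3, which encodes an insulin-like growth factor binding protein, fell from 267, 400 and 214 to 133, 153 and 98 (log2 fold change -1.17, SE 0.24, adjusted p 0.0121 in limma) and did not pass without Taf4asKO replicate 3 (adjusted p 0.0571). The targets Axl (0.29), Rbms3 (0.03) and Tgfb2 (-0.26) did not pass.

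**Figure D5:**
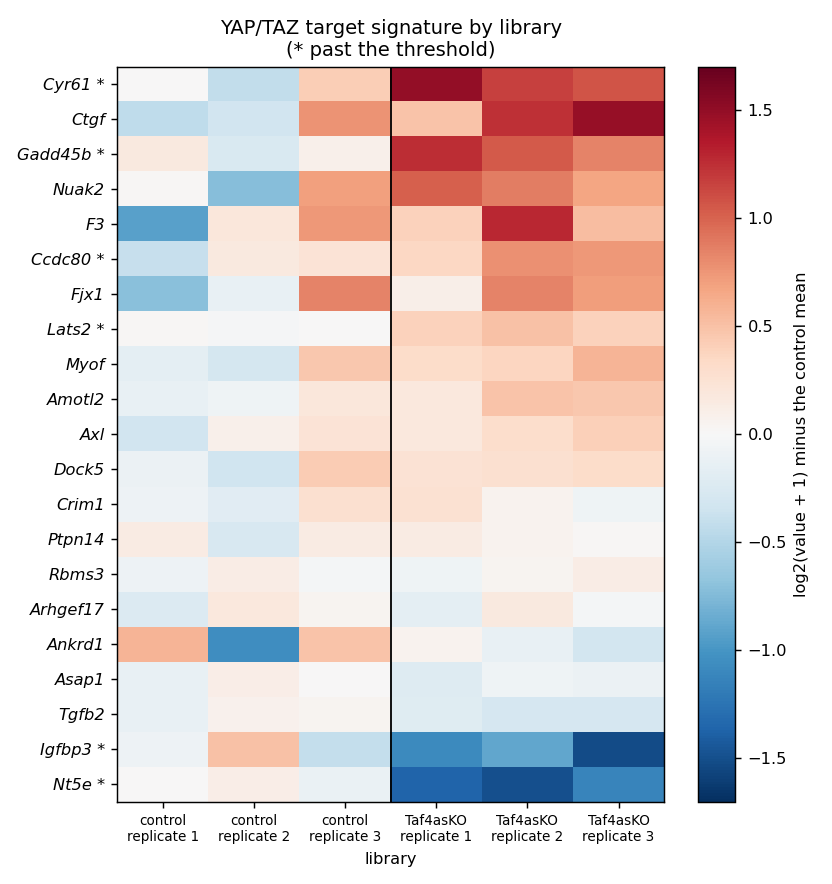
Difference of log2(value + 1) from the control mean (colour, red above and blue below) for the 21 measured genes of the YAP and TAZ target signature (rows, asterisk past the threshold) in the 6 libraries (columns). Cyr61 and Gadd45b are red and Nt5e and Igfbp3 blue in all 3 Taf4asKO libraries, while Ankrd1 is blue in control replicate 2 and red in control replicates 1 and 3.

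Markers that moved with the groups are given beside these targets. Shares over all genes tested were 12.6% past the threshold (5.93% higher and 6.71% lower) and 18.1% when blocked on replicate number. Genes induced by tissue dissociation, a list of 15 that includes Fos, Egr1 and Atf3, summed to 273421 to 321250 normalized counts in control and 408614 to 531619 in Taf4asKO, with 8 higher and 2 lower (the heat shock genes Hspa1a and Hspa1b) past the threshold. Control replicate 2, which had the lowest Ankrd1 and Cyr61 values, also had the lowest sum. The 8 fibro-adipogenic markers summed to 55604 to 81847 in control and 33884 to 56229 in Taf4asKO, with Col3a1 and Dpt lower past the threshold and 5 others higher when blocked on replicate number, while Pdgfra gave 49, 139 and 152 in control and 160, 203 and 247 in Taf4asKO (log2 fold change 0.98, adjusted p 0.115 in limma). Control replicate 1, which had the lowest Ccdc80, Ctgf and Axl values, had the lowest Pdgfra. Of 6 Schwann cell markers 4 were higher, with sums from 1153 to 2689 in control and 3355 to 4047 in Taf4asKO. Of 6 smooth muscle and pericyte markers 2 were higher (Rgs5 and Myh11, and 4 when blocked), with sums from 24951 to 29030 and from 24855 to 29088. The most abundant of these 6, Notch3, gave 15838, 13174 and 17451 in control and 10737, 12673 and 13457 in Taf4asKO (adjusted p 0.131 in limma). Of 6 endothelial markers 0 passed in limma (4 at an unadjusted p under 0.05, and 2 passed when blocked on replicate number), with sums from 879 to 1277 and from 1392 to 1700. Of 5 myofibre markers 0 passed in limma (0 at an unadjusted p under 0.05), with sums from 1170 to 3618 and from 2045 to 2602. Of 6 haematopoietic markers only Cd68 and Csf1r had rows among the 22081 genes, with sums from 131 to 328 and from 195 to 201. Ptprc (the gene of CD45, an antigen depleted in the sort), Adgre1, Itgam and Cd3e had no row. No marker with a value was at 0 in any library, and Ly6a, one of the antigens depleted in the sort, had 2 to 14 normalized counts. The part of these shifts in the target values was not tested, and fewer cells of a type cannot be told apart from less RNA per cell in bulk samples.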

How the data were processed

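RNA of 3 control and 3 Taf4asKO MuSC samples was sequenced from stranded total RNA libraries. According to the study's methods and the submitters' processing notes, the authors trimmed reads with Trimmomatic 0.39, aligned them to mm10 with STAR 2.6.0c, removed multi-mapping reads, counted with featureCounts 1.6.0 and normalized with DESeq2 1.14.1. The deposited values are a score, not raw counts: normalized counts that the authors rounded to whole numbers. The rounding was inferred from gaps among the whole numbers up to 60. Unused were 9, 7 and 0 of them in control replicates 1, 2 and 3, and 0, 4 and 0 in Taf4asKO. Whether counting used the strand is not given in the sources used here. All 6 value columns belong to a sample.

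All 18562 genes that averaged 5 or more entered a two-sided limma-trend fit (limma 3.58.1, R 4.3.3) of log2(value + 1) on group alone, since raw counts would have been needed for a count model. The limits on mean, adjusted p and fold follow the study's methods. The fit was tested on simulated data. Same-numbered control and Taf4asKO libraries deviated weakly together (correlations of 0.235, 0.126 and 0.15 across genes), so the fit was repeated blocked on replicate number. Each gene was centred within its group first. The mean of -0.0848 for other pairs largely follows from this centring and is no separate contrast. The pairing was not tested. Replicate numbers come from the sample titles, which name no litter or batch, and p-values measure the spread between these samples. As a check for a library deposited more than once, replicates were compared in pairs, and none were identical (chi-square divided by its degrees of freedom, 3.83 to 41.1). Exon lengths and overlaps come from GENCODE M21, in which 99.8% of gene identifiers were found, and promoters from RefSeq (GRCm38.p6). For Tead3, Tead4, Ankrd1, Amotl2 and the main row of Lats2, GENCODE M21 gives another gene span than the deposited values. Levels per kilobase, TEAD shares and the unshared Lats2 bases are therefore approximate for these genes. The members, lists and tests were chosen with earlier results of these data known. Named genes are the 10 members, Taf4, pathway genes past the threshold with up to 4 others per list, the most similar genes, and markers; Ctgf, Rassf1, Fat4, Limd1 and Wtip were named after their values were seen. Alternatives were other scalings, filters, pseudocount, limits, limma-voom, the block and leaving out each library. Figures were drawn with matplotlib 3.10.9.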

Additional observations from a re-analysis of the deposited data

How the results depend on the processing

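Of the 10 members, 2 passed the threshold and 4 when blocked on replicate number. With total-count scaling and with limma-voom 1 passed (Lats2, with Wwtr1 lost), and 0 passed at a fold limit of 2 or an adjusted p under 0.01. In each of these fits 6 had an unadjusted p under 0.05, a limit at which no share of all genes was taken. Leaving out one library gave 0 to 4 members, 0 whenever a Taf4asKO library was left out (4 to 6 at an unadjusted p under 0.05), 5 to 18 of 76 pathway genes, 3 to 10 of 21 targets and 956 to 3096 genes in all. The last is lowest without Taf4asKO replicate 3 and highest without control replicate 2. At a fold limit of 2, 4 pathway genes and 850 genes in all passed, and with an adjusted p under 0.01, 5 pathway genes, 3 targets and 876 genes in all, against 13, 6 and 2347. Upper-quartile scaling, scaling without abundant genes, the pseudocount and both filters kept the count of members at 2. Of 351 single-gene values of 21 named genes and the readthrough row, 293 kept direction and call, 49 lost and 6 gained the call and 3 reversed. The reversed ones were Tead1 (-0.020 to 0.16) and Ankrd1 (-0.66 to 0.16), each on leaving out single libraries. Other scalings moved the median of all genes to between -0.029 and 0.0027. The replicate block changed no call among the pathway genes named other than Tead3, Tead4, Rassf1 and Ctgf. The cause of these changes was not tested. Only 3 libraries per group limit the precision, among the 10 members most for Tead4 and Ankrd1.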
